A study of Mus musculus with 12 samples.

Results

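The osteoblast and mineralization genes examined here are Runx2, Sp7, Alpl, Smpd3, Phex, Bglap, Ibsp, Dmp1 and Mepe. They were chosen by name, and each was looked up in the deposited gene count table through its Ensembl identifier. All 9 were found among 21965 genes. RNA was measured in 12 libraries of mouse gingival tissue, with 3 libraries in each of 4 groups. The groups were WT naive, WT ligated, CybbKO naive and CybbKO ligated. WT mice were C57BL/6 wildtype animals (C57BL/6J in the methods), and CybbKO mice (labelled Cybb-/-) carry a disrupted Cybb, which codes for a subunit of the Nox2 NADPH oxidase. Ligated mice had a silk ligature around a maxillary molar for 8 days, naive mice had none, and all mice were under 12 weeks of age. In this model bacteria gather at the ligature, the gum becomes inflamed and the jaw bone beside it is resorbed. The comparison of ligated with naive tissue therefore asks how genes of bone formation stood in the gum at such a site, and the comparison of genotypes asks whether this differed in mice with a disrupted Cybb.

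Bone-forming cells arise from mesenchymal progenitors. Runx2 is the transcription factor that commits such progenitors to the osteoblast lineage, and Sp7 (osterix) acts after it. Osteoblasts lay down collagen and mineralize it, and their alkaline phosphatase, Alpl, removes pyrophosphate, an inhibitor of mineral growth. Ibsp (bone sialoprotein) and Bglap (osteocalcin) are matrix proteins of mineralizing bone. Dmp1, Phex and Mepe are best known from osteocytes, the cells embedded in bone matrix, where they bear on mineralization and phosphate balance. Smpd3 codes for a neutral sphingomyelinase that bone needs for normal mineralization and that other tissues use as well.

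The libraries held 27958819 to 42613423 counted reads each, and no pair of libraries of the same group agreed within sampling noise. The tissue label was checked on 8 oral epithelium markers, led by Krt13, whose summed level was 58560 to 113100 CPM (counts scaled to a common library size with TMM factors). Dspp and Amelx, the defining matrix genes of dentin and enamel, had 0 counts in every library. Other genes of the tooth hard tissue list did have reads, with 242.5 to 866 CPM for Odam and 73.3 to 243 CPM for Odaph. The targeted gene Cybb had 4.19 to 5.60 CPM in WT naive, 8.41 to 15.2 CPM in WT ligated, 41.6 to 56.3 CPM in CybbKO naive and 51.1 to 63.7 CPM in CybbKO ligated libraries. It was thus higher in the libraries labelled CybbKO, against the direction of a lost transcript, and reads summed over the gene do not check the disruption. WT naive library 3 stood apart in gland RNA, since its salivary gland markers summed to 29180 CPM and those of every other library to 5050 CPM or less. WT naive library 1 stood apart in the other direction, with a sum of 56.3 CPM against 1630 CPM or more in all others. Ligated libraries also held more RNA of other cell types. The 8 fibroblast markers, all detected, summed to 1059 to 1744 CPM in naive and 1962 to 5677 CPM in ligated libraries, and the 10 osteoclast genes to 80.7 to 151 CPM in naive and 170.0 to 532 CPM in ligated libraries. In bulk tissue, fewer cells of a type and less RNA per cell cannot be told apart.

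The coding sequences of the osteocalcin genes bear on how well Bglap could be counted. Bglap lies on chromosome 3, with its near copy Bglap2 4801 bases away and Bglap3 another 4992 bases beyond Bglap2. The coding sequence of each is 285 bases long in GENCODE release 21 on GRCm38. Bases that differ from Bglap are in capitals, 4 in Bglap2 and 13 in Bglap3.
Bglap: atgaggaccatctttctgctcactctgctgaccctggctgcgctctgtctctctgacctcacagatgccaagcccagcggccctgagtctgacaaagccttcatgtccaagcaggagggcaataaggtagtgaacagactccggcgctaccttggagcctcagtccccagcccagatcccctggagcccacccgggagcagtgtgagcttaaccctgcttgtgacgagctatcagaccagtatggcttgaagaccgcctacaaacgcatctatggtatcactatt
Bglap2: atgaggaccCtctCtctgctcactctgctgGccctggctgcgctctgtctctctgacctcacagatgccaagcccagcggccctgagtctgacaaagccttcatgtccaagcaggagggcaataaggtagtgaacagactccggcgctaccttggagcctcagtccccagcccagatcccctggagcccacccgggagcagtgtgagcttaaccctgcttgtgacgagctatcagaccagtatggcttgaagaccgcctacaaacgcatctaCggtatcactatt
Bglap3: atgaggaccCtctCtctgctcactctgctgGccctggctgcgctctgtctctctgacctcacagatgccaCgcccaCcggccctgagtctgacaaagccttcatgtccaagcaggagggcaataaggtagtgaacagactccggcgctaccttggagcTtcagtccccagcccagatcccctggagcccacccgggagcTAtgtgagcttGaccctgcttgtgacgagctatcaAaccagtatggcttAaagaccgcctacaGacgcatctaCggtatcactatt
Over the full length of the protein-coding transcripts, 66.1% of the stretches of 75 bases in Bglap also occur in Bglap2, and 3.00% occur in Bglap3. The sequencing kit gave 75 cycles, and the methods name both paired-end sequencing and single-end reads, so the length of a read is not settled and shorter reads would be shared more often. Reads from such stretches cannot be assigned to a single gene, so the level of Bglap is uncertain.

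The RefSeq promoter entries used here, on GRCm38.p6, matched 7 of the 9 genes. Those of Alpl, Ibsp and Dmp1 are shown because these genes rose with the ligature, and that of Bglap because it holds the RUNX core motif in a gene whose change did not pass the test. Capitals mark this core, searched as TGTGGT on both strands and so also as ACCACA. Each stretch ends before the RefSeq start, or before the gene start in GENCODE where that lies further upstream.
Alpl, outer start, minus strand, chr4:137796385-137796634: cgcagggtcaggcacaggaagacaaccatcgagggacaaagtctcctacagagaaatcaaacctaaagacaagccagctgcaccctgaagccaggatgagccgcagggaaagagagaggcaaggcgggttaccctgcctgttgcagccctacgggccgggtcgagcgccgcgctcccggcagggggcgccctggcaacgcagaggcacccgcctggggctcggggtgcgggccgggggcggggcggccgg
Ibsp, plus strand, chr5:104299037-104299170: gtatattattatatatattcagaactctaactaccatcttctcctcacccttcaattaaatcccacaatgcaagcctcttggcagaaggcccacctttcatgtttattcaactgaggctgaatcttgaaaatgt
Dmp1, inner start, plus strand, chr5:104202367-104202612: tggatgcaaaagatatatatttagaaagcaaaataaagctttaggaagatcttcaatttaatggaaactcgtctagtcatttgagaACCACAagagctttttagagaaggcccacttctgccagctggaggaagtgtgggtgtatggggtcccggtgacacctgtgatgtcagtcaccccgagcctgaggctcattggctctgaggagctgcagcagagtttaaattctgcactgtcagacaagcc
Bglap, minus strand, chr3:88384467-88384716: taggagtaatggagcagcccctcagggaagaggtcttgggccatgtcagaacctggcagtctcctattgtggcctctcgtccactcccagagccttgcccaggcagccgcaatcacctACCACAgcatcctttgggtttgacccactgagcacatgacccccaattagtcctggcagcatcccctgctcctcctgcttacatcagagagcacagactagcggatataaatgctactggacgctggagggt
Within 250 bases before a RefSeq start, the core occurred in 4 of the 9 entries of these 7 genes, 1 each of 4 genes, which were Runx2, Bglap, Dmp1 at its inner start and Mepe. The match of Runx2, 80 bases before its RefSeq start, lay inside the gene as given in GENCODE. The first base of the core stood 164 bases before the start in Dmp1 and 132 bases before the start in Bglap, while Mepe had 2 matches, at 118 and 80 bases. No match lay in these windows of Alpl, Ibsp and Phex. Of the 20146 promoter entries of genes in the count table, 12.1% held the core, and a match is a description of the letters, not a bound site.

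After 8 days of ligature, Sp7, Alpl, Ibsp and Dmp1 rose when the change was averaged over both genotypes, from 2.25-fold for Sp7 to 5.02-fold for Ibsp. Runx2 and Bglap had positive fold changes that did not pass the test, and Phex and Smpd3 had negative ones that did not pass it. Mepe had too few reads to be tested. Of the 8 genes tested, 4 were called, all higher, by edgeR's quasi-likelihood test at an adjusted p under 0.05, and 14.7% of all 15046 tested genes were called higher in this comparison (24.4% in either direction). The median log2 fold change was 0.91 over the 8 genes and -0.03 over all tested genes.

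**Figure D1:**
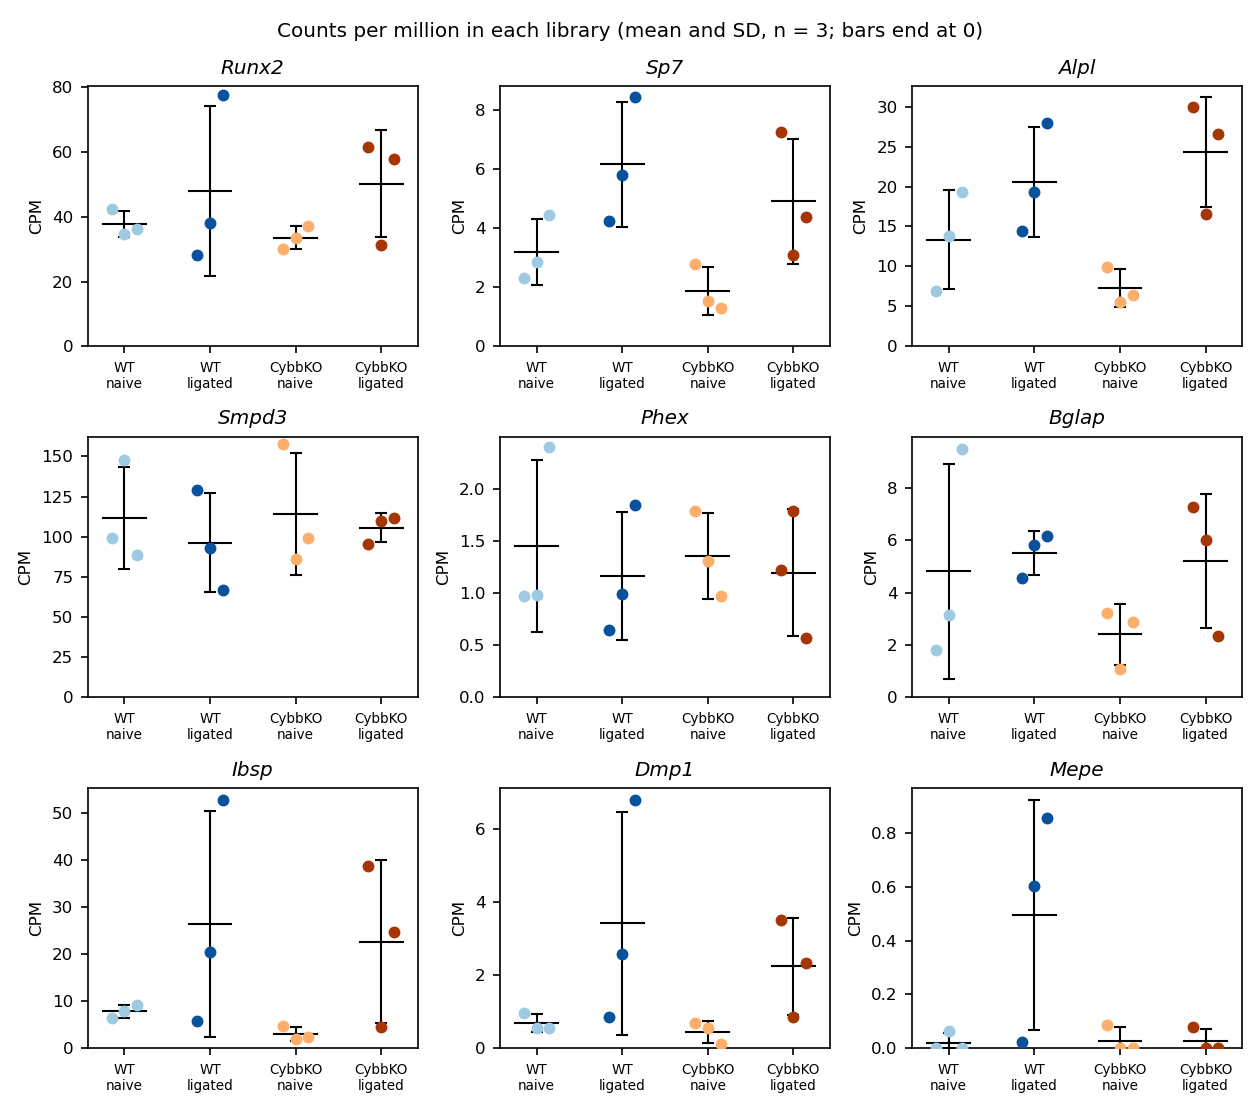
Levels in CPM (vertical axis, from 0) of the 9 genes in each of the 12 libraries, by group; points are libraries, lines are means and bars are SD over 3 libraries, ending at 0. Ibsp, Dmp1 and Runx2 reach their highest points in WT ligated library 3, and Mepe lies above 0.5 CPM in WT ligated libraries 2 and 3 only.

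Runx2 (ENSMUSG00000039153; chromosome 17, minus strand, 44495987 to 44814797) had 42.4, 34.7 and 36.2 CPM in WT naive libraries 1 to 3, and 28.2, 38.2 and 77.6 CPM in WT ligated libraries 1 to 3. In the libraries labelled CybbKO it had 30.02, 33.4 and 37.1 CPM when naive and 61.6, 31.4 and 57.9 CPM when ligated. The naive libraries lay close together, while in both genotypes the ligated ones ran from below the naive mean to well above it, so the groups overlapped. Its log2 fold change with ligature was 0.47 (standard error 0.23) averaged over genotypes, with an adjusted p of 0.172 from edgeR's test, and it was 0.20 without WT ligated library 3.

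Sp7 (ENSMUSG00000060284; chromosome 15, minus strand, 102356606 to 102367182) had 2.32, 2.85 and 4.45 CPM in WT naive and 4.26, 5.81 and 8.46 CPM in WT ligated libraries. Among CybbKO libraries it had 2.80, 1.53 and 1.31 CPM when naive and 7.26, 3.10 and 4.38 CPM when ligated. In WT the lowest ligated library lay just under the highest naive one, and in CybbKO the groups did not overlap. The averaged log2 fold change of Sp7 was 1.17 (standard error 0.29, adjusted p = 0.0130 from edgeR's test). An exact two-sided permutation test within genotypes, over 400 arrangements of the libraries with a smallest possible p of 0.005, gave p = 0.01 on log2(CPM + 1).

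Among the enzymes, Alpl (ENSMUSG00000028766; chromosome 4, minus strand, 137741733 to 137796384) had 6.94, 13.8 and 19.4 CPM in WT naive and 14.4, 19.3 and 28 CPM in WT ligated libraries. The libraries labelled CybbKO had 9.99, 5.52 and 6.44 CPM when naive and 29.9, 16.6 and 26.5 CPM when ligated. Every ligated CybbKO library thus exceeded every naive one, while the WT groups overlapped, with WT naive library 3 the highest of the naive libraries. The averaged log2 fold change of Alpl was 1.18 (standard error 0.27, adjusted p = 0.00875 from edgeR's test), and the exact permutation p was 0.015.

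Smpd3 (ENSMUSG00000031906; chromosome 8, minus strand, 106252548 to 106337988) had 88.4 to 148 CPM in WT naive, 67.1 to 129 CPM in WT ligated, 86.0 to 158 CPM in CybbKO naive and 95.2 to 112 CPM in CybbKO ligated libraries. All 4 groups overlapped, and the averaged log2 fold change was -0.16 with a 95% interval from -0.59 to 0.26. Phex (ENSMUSG00000057457; chromosome X, minus strand, 157162075 to 157415312), an endopeptidase-like membrane protein tied to phosphate balance, had few reads, 25 to 71 in a library. Its averaged log2 fold change was -0.25 with a 95% interval from -1.06 to 0.55.

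Of the matrix genes, Ibsp (ENSMUSG00000029306; chromosome 5, plus strand, 104299171 to 104311469) had 6.49, 7.84 and 9.19 CPM in WT naive and 5.90, 20.4 and 52.8 CPM in WT ligated libraries. For the libraries labelled CybbKO the values were 4.82, 1.91 and 2.35 CPM when naive and 38.9, 4.44 and 24.8 CPM when ligated. In each genotype 2 ligated libraries lay far above the naive ones and the remaining ligated library, WT 1 or CybbKO 2, lay within or below the naive range. The averaged log2 fold change of Ibsp was 2.33 (standard error 0.56, adjusted p = 0.0113 from edgeR's test), and the exact permutation p was 0.04.

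Dmp1 (ENSMUSG00000029307; chromosome 5, plus strand, 104202613 to 104214102) rested on 4 to 32 reads in a naive library and 32 to 262 reads in a ligated one. It had 0.975, 0.569 and 0.547 CPM in WT naive and 0.871, 2.59 and 6.80 CPM in WT ligated libraries. CybbKO libraries had 0.693, 0.555 and 0.122 CPM when naive and 3.52, 0.856 and 2.35 CPM when ligated. Here too WT ligated library 1 and CybbKO ligated library 2 were the lowest of their groups, the WT groups overlapped and the CybbKO groups did not. The averaged log2 fold change of Dmp1 was 2.28 (standard error 0.54, adjusted p = 0.0108 from edgeR's test), and the exact permutation p was 0.01.

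Bglap (ENSMUSG00000074483; chromosome 3, minus strand, 88383501 to 88384464) had 1.83, 3.13 and 9.51 CPM in WT naive and 4.56, 5.81 and 6.18 CPM in WT ligated libraries. In the libraries labelled CybbKO it had 3.23, 1.08 and 2.90 CPM when naive and 7.29, 6.02 and 2.33 CPM when ligated. The groups overlapped in both genotypes, and the highest value of all came from WT naive library 3, the library with the high gland RNA. Its averaged log2 fold change was 0.66 (standard error 0.42, adjusted p = 0.281 from edgeR's test). Without WT naive library 3 it was 1.13 and passed the test (adjusted p = 0.0351 from edgeR's test), which made 5 genes called. The copies went the other way without passing the test: Bglap2 had an averaged log2 fold change of -0.51 (adjusted p = 0.212) and Bglap3 of -0.47 (adjusted p = 0.221), both from edgeR's test.

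Mepe (ENSMUSG00000053863; chromosome 5, plus strand, 104325329 to 104338611) had 1, 23 and 33 reads in WT ligated libraries 1 to 3 and at most 3 reads in each of the 9 other libraries. A count of 0 allows 3 reads, which is 0.0704 to 0.107 CPM of the library totals before TMM scaling. Only WT ligated libraries 2 and 3 had more than 3 reads, at 0.602 and 0.856 CPM. It did not pass the filter on low counts. Without a filter, edgeR gave the ligature change in WT an adjusted p of 0.132. The same fit gave a log2 difference of -4.11 between CybbKO and WT ligated tissue. Its unadjusted p from edgeR's test was 0.00801, and it did not pass after adjustment. Sost, the osteocyte gene for the Wnt inhibitor sclerostin, was named after its values were seen: it had 7 reads in each of the same libraries and 0 in all others.

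Dmp1, Ibsp and Mepe stand next to each other on chromosome 5, in the cluster of small integrin-binding matrix glycoprotein genes that also holds Dspp and Spp1 (osteopontin) and spans 270339 bases. Ibsp and Mepe are 13859 bases apart, and Dmp1 lies 85068 bases from Ibsp. Their neighbour Spp1 had 2.73 to 5.63 CPM in WT naive, 14.3, 49.0 and 212 CPM in WT ligated, 2.47 to 3.32 CPM in CybbKO naive and 138, 9.71 and 107 CPM in CybbKO ligated libraries. No naive library reached a ligated one, and the averaged log2 fold change of Spp1 was 4.58 (standard error 0.73, adjusted p = 0.00136 from edgeR's test). Spp1 is also made by macrophages and other cells outside bone. At the other end of the cluster Dspp had no read, so the cluster held both a gene without reads and genes that rose.

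**Figure D2:**
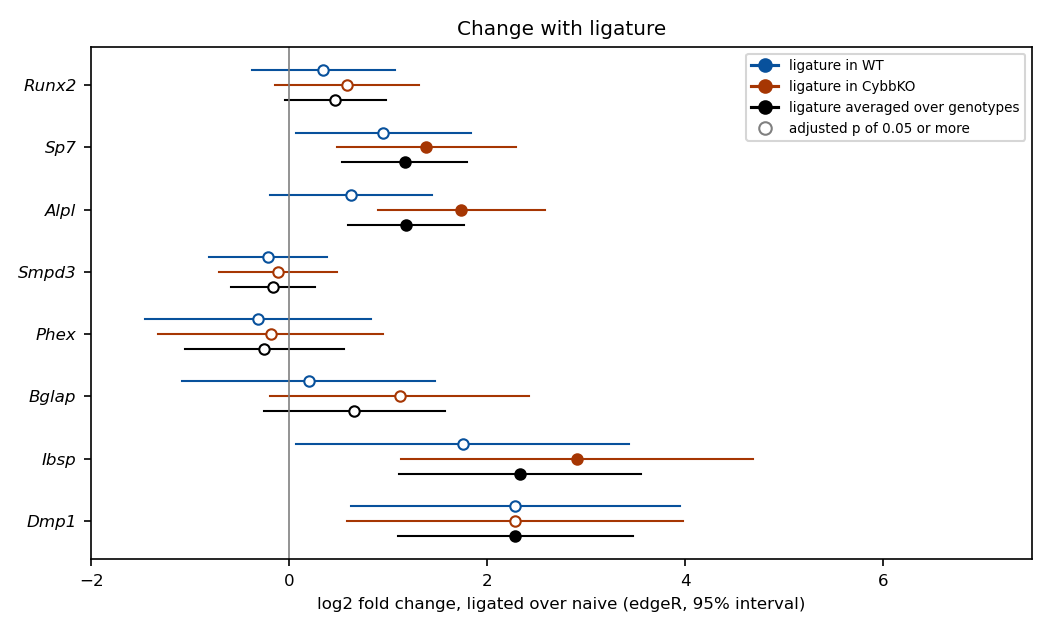
Log2 fold change of ligated over naive tissue (horizontal axis) for the 8 genes tested by edgeR, in WT, in CybbKO and averaged over both genotypes; points are estimates, lines are 95% intervals, and filled points have an adjusted p under 0.05. Sp7, Alpl and Ibsp are filled in CybbKO and in the average, Dmp1 in the average only, and none is filled in WT.

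Taken within each genotype, fewer of these changes passed. In WT, 0 of the 8 genes were called by edgeR, where 3.2% of all tested genes were called, while 3 (Sp7, Ibsp and Dmp1) had an unadjusted p under 0.05, as did 19.9% of all tested genes. DESeq2 called Dmp1 in WT, and 8.93% of the genes it tested. The log2 fold changes in WT were 0.95 for Sp7, 0.62 for Alpl, 1.75 for Ibsp and 2.28 for Dmp1. Without WT ligated library 3 those of Ibsp and Dmp1 were 0.75 and 1.30, and with each library left out that of Alpl ran from 0.31 to 0.99. In CybbKO, 3 genes were called, Sp7 (1.38, adjusted p = 0.0469), Alpl (1.74, adjusted p = 0.0136) and Ibsp (2.91, adjusted p = 0.0368), all higher, where edgeR called 13.0% of all tested genes and 9.95% higher. The log2 fold change of Dmp1 in CybbKO was again 2.28, with an adjusted p of 0.0764 from edgeR's test. DESeq2 called Dmp1 there as well (adjusted p = 0.0144), beside Sp7, Alpl and Ibsp, and 17.8% of the genes it tested. Libraries of Sp7, Alpl and Dmp1 did not overlap between ligated and naive CybbKO tissue, as was the case, higher in ligated tissue, for 18.5% of all tested genes. The smallest p an exact permutation test can reach with 3 libraries against 3 is 0.1, which was the value for these 3 genes.

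The calls within CybbKO were lost when single libraries were left out. Without CybbKO ligated library 1, CybbKO naive library 2 or CybbKO naive library 3, 0 of the 8 genes were called by edgeR. Alpl alone was called without CybbKO ligated library 3, WT ligated library 2 or WT naive library 2, Sp7 and Alpl without CybbKO naive library 1, Alpl, Ibsp and Dmp1 without WT ligated library 1, and those 3 with Sp7 without CybbKO ligated library 2. The log2 fold changes in CybbKO ran from 1.56 to 2.02 for Alpl, from 0.99 to 1.79 for Sp7 and from 2.27 to 3.41 for Ibsp, each the lowest without CybbKO ligated library 1 and the highest without CybbKO naive library 1. In the average over genotypes, Sp7, Alpl, Ibsp and Dmp1 were called with each of the 12 libraries left out in turn.

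Between libraries labelled CybbKO and WT, no difference in the 8 tested genes passed edgeR's test in either tissue state. In naive tissue 0 of 8 genes were called by edgeR or by DESeq2, where edgeR called 0.00665% of all tested genes, the single gene Cybb, and DESeq2 0.011%. Alpl had an unadjusted p under 0.05 there, as did 2.03% of all tested genes, with a log2 fold change of -0.87 (95% interval from -1.70 to -0.03, adjusted p = 1 from edgeR's test). Without WT naive library 3 this was -0.50, and without WT naive library 1 it was -1.18. Ibsp was lower in each naive CybbKO library than in each naive WT library, with a log2 fold change of -1.37 and an exact permutation p of 0.1, the smallest possible. Such a gap, lower in CybbKO, was seen in 3.03% of all tested genes. Of the 8 genes 7 had a negative estimate, as had 49.5% of all tested genes. The estimates were also negative for 8 of 8 fibroblast, 8 of 8 macrophage, 7 of 8 bone matrix and 7 of 8 periodontal ligament and tendon genes, and for 4 of 4 salivary gland genes, the RNA in which WT naive libraries 1 and 3 stood apart. They were negative for 1 of 7 endothelial, 2 of 9 neutrophil and 1 of 8 skeletal muscle genes. None of the genes of these lists was called, and the part of tissue composition was not tested.

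In ligated tissue 0 of 8 genes were called by edgeR, which called 0.00665% of all tested genes, again Cybb alone, and 0 by DESeq2, which called 0.0827%. An unadjusted p under 0.05 from edgeR was seen for 0 of the 8 and for 3.34% of all tested genes. The estimates ran from -0.61 for Dmp1 to 0.24 for Alpl on the log2 scale, with 95% intervals from -2.13 to 0.92 for Dmp1 and from -0.57 to 1.06 for Alpl. The estimate for Ibsp was -0.22, with an interval from -1.84 to 1.40, and it turned to 0.79 without WT ligated library 3. The intervals for Ibsp and Dmp1 thus span differences of severalfold in size.

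The difference between the genotypes in the ligature change was tested directly, and 0 of the 8 genes were called by edgeR or DESeq2, as were 0.0% of all tested genes. An unadjusted p under 0.05 from edgeR was seen for 0 of the 8 and for 2.27% of all tested genes. The difference for Alpl was 1.11 on the log2 scale (95% interval from -0.05 to 2.27, unadjusted p = 0.0593 and adjusted p = 1 from edgeR's test), and DESeq2 gave it an unadjusted p of 0.0400. It was 0.44 for Sp7 and 1.15 for Ibsp. Without CybbKO ligated library 1 these were 0.044 and 0.52, without CybbKO naive library 1 that of Sp7 was 0.84, and without WT ligated library 3 that of Ibsp was 2.16. For Dmp1 the log2 fold changes of both genotypes were equal to 2 decimals, but their difference ran from -0.48 to 0.98 with single libraries left out. The larger number of calls in CybbKO than in WT is therefore not shown to be a difference between the genotypes.

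Levels can be compared between genes once they are divided by transcript length. By mean TPM (counts divided by the length of the union of exons and scaled to the same sum in each library) in WT naive tissue, Smpd3 stood first with 61.7 ± 15.4 TPM (SD, n = 3), above the range of Bglap with 22.5 ± 19.1 TPM (SD, n = 3). Bglap, Runx2 (12.5 TPM), Ibsp (10.98 TPM) and Alpl (9.54 TPM) overlapped from each to the next. Sp7 followed apart from them with 2.73 TPM, then Dmp1 with 0.740 TPM and Phex with 0.670 TPM, which overlapped, and Mepe with 0.0350 TPM. In WT ligated tissue Ibsp moved up to 41.4 ± 38.0 TPM (SD, n = 3) and overlapped Smpd3 at 58.6 ± 17.2 TPM (SD, n = 3), and Dmp1 at 4.02 TPM overlapped Sp7 at 5.86 TPM. The order in CybbKO ligated tissue began the same way, with Smpd3 at 61.9 TPM, Ibsp at 35.0 TPM and Bglap at 25.96 TPM. Smpd3 thus had the highest mean in every group, overlapping Ibsp in both ligated groups, and by its mean Ibsp stood higher in the order in ligated than in naive tissue of both genotypes.

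The 8 genes tested varied more between libraries of a group than the typical gene. For Dmp1 and Phex, which had few reads, this spread includes counting error, whose part was not measured. The SD of log2 CPM within groups was 1.20 for Ibsp, 1.07 for Dmp1, 0.86 for Bglap and 0.68 for Phex, and lowest for Smpd3 at 0.39, where the median of all tested genes was 0.27. Ibsp was more variable than 98.7% of tested genes and Smpd3 than 72.0%. Over the 12 libraries, deviations from the group means were compared between genes as a description, since values of a library share its depth and its piece of tissue. Runx2, Sp7, Alpl, Ibsp and Dmp1 had Pearson's r from 0.43 to 0.88 over their 10 pairs, with a median of 0.75, a set chosen after the values were seen. Over all 28 pairs of the 8 genes the median was 0.44, and over the pairs of these 5 with Bglap, Phex and Smpd3 it was 0.11. Without the 2 libraries farthest from the median of the first gene of a pair, r over the 10 pairs of these 5 genes ran from 0.17 to 0.94. It was then 0.17 for Runx2 with Alpl, 0.28 for Runx2 with Sp7 and 0.47 for Runx2 with Dmp1, so these relations rest in part on those libraries. With all 12 libraries the highest r was that of Sp7 with Alpl (r = 0.88, Spearman's rho = 0.86, and r = 0.89 without the 2 libraries farthest from the median of Sp7). Runx2 and Ibsp had r = 0.84 (rho = 0.62, and 0.71 without 2 libraries). Smpd3 had negative values with all 7 others, down to r = -0.63 with Runx2, but without 2 libraries this was -0.31 and that with Bglap turned to 0.058.

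**Figure D3:**
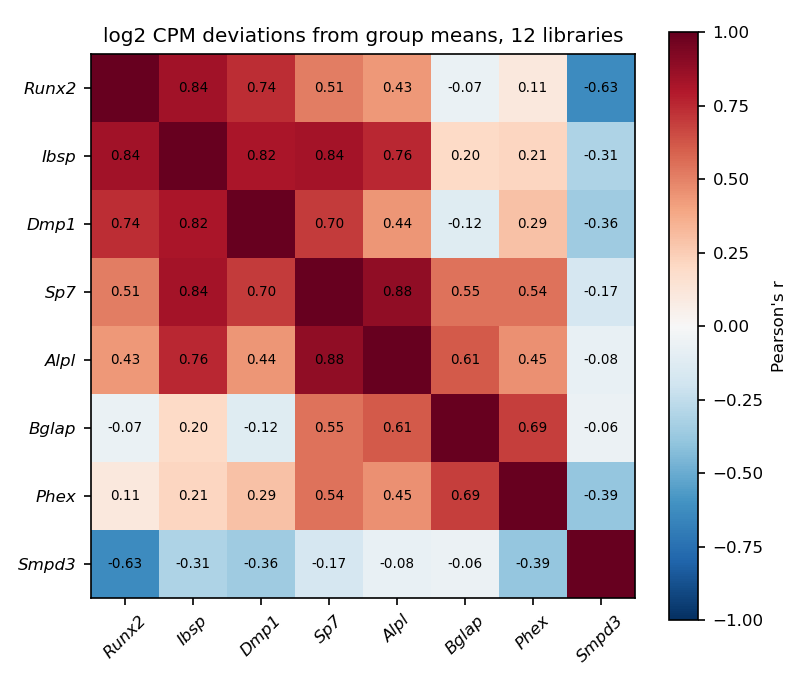
Pearson's r between the 8 genes tested (both axes), over the deviations of log2 CPM from the group mean in 12 libraries; red is positive and blue negative. The block of Runx2, Ibsp, Dmp1, Sp7 and Alpl lies between 0.43 and 0.88, Bglap and Phex have 0.69 with each other, and the row of Smpd3 is negative.

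WT ligated library 1 and CybbKO ligated library 2 were the lowest of their groups in Runx2, Sp7, Alpl, Ibsp and Dmp1. Of the 8 genes tested, WT ligated library 1 was the lowest in 7 and the highest in Smpd3, and CybbKO ligated library 2 the lowest in these 5 and the highest in Phex. They were also the lowest of their groups in the summed levels of fibroblast, osteoclast, endothelial, neutrophil, macrophage and periodontal ligament markers. Gene by gene, WT ligated library 1 was the lowest in 8 of 8 fibroblast, 7 of 9 osteoclast, 8 of 9 neutrophil and 8 of 8 macrophage genes tested. CybbKO ligated library 2 was the lowest in 7 of 8 fibroblast and 9 of 9 osteoclast genes, but it was the highest in 4 of 9 neutrophil genes, among them Retnlg and Ly6g, and in 3 of 8 macrophage genes, C1qa, C1qb and C1qc. In the sum of oral epithelium markers, most of it keratins, they were the highest of their groups, at 90590 and 103800 CPM against 58560 to 77260 CPM in the other ligated libraries. Of its 8 genes, WT ligated library 1 was the highest in 2 and the lowest in 2, and CybbKO ligated library 2 the highest in 5 and the lowest in 3 (Trp63, Cdh1 and Epcam). CybbKO ligated library 2 was also the highest of its group in 7 of 8 skeletal muscle genes, with a sum of 2879 CPM against 1079 and 935 CPM, and in 5 of 6 nerve and Schwann cell genes. The osteoclast genes summed to 185 and 170.0 CPM in these libraries and to 234 to 532 CPM in the other ligated ones. The part of tissue composition in the differences between libraries was not tested.

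The genes whose deviations were most like those of Smpd3, by a fixed ranking over the 12 libraries, were Gba2 (r = 0.98, rho = 0.99), Rnf222 (r = 0.97, rho = 0.92) and Krt78 (r = 0.96, rho = 0.90), the last a keratin of stratified epithelium. With the mean of the 8 genes, the closest were Kank2 (r = 0.94, rho = 0.90), Msx1 (r = 0.93, rho = 0.92) and Olfm1 (r = 0.93, rho = 0.90). For Ibsp, a profile added after its values were seen, the 10 closest included Slc9b2 (r = 0.96), Vim (r = 0.95) and the osteoclast protease gene Ctsk (r = 0.95). These are the highest values among all tested genes, read from 12 libraries, and are descriptions only.

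Fibroblast marker RNA rose with the ligature, as did the 4 called genes. The geometric mean of the 8 fibroblast markers was 50.0, 66.9 and 79.3 CPM in WT naive and 89.5, 114 and 131 CPM in WT ligated libraries. In the libraries labelled CybbKO it was 52.2, 46.4 and 49.0 CPM when naive and 178, 77.4 and 138 CPM when ligated. Ligated libraries exceeded naive ones in both genotypes, by 1.05 on the log2 scale on average (exact permutation p = 0.005, the smallest possible). Divided by this mean, a scale chosen after the data were seen, the averaged log2 difference was 0.11 for Sp7 (exact permutation p = 0.55) and 0.16 for Alpl (p = 0.39). It was 0.84 for Ibsp (exact permutation p = 0.13) and 1.10 for Dmp1 (p = 0.07). On this scale Runx2 had a difference of -0.68, Phex of -1.36 and Smpd3 of -1.20, with exact permutation p-values of 0.015, 0.015 and 0.01. These p-values are not adjusted for the 8 genes tested. All exact tests of this paragraph used log2 CPM with no added count, unlike those on log2(CPM + 1) above. None of the 4 genes called on the CPM scale thus passed relative to fibroblast markers, and Runx2 lay lower.

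**Figure D4:**
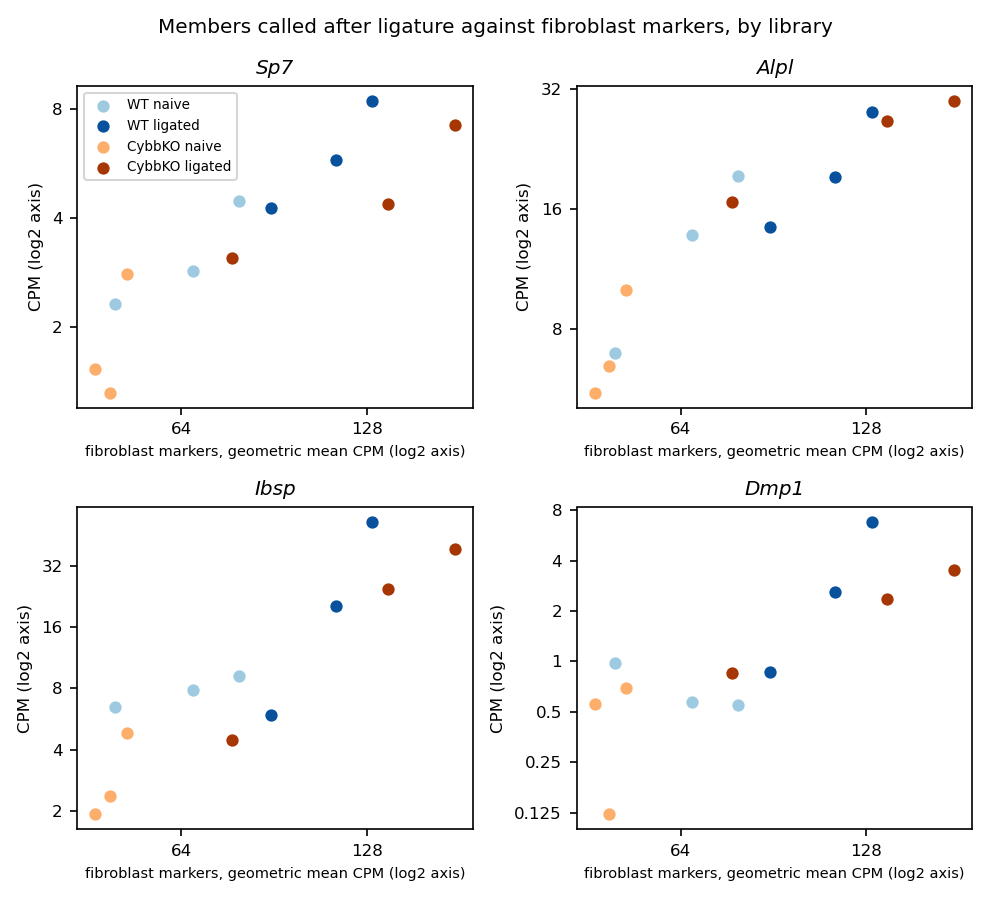
CPM of Sp7, Alpl, Ibsp and Dmp1 (vertical axes, log2) against the geometric mean CPM of 8 fibroblast markers (horizontal axes, log2) in 12 libraries, coloured by group. Sp7 and Alpl follow the marker level across all groups, whereas for Ibsp and Dmp1 the 4 ligated libraries with over 100 CPM of markers stand above the rest.

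Other osteoblast regulators did not move as a body. Of 11 genes listed, all tested, 2 were higher and 4 lower with the ligature averaged over genotypes by edgeR's test, with a median log2 fold change of -0.08. The genes that fell were homeobox factors that epithelium uses as well: Dlx3 went from 84.4 ± 2.65 CPM (SD, n = 3) in WT naive to 49.0 ± 5.54 CPM (SD, n = 3) in WT ligated tissue, and its averaged log2 fold change was -0.89 (adjusted p = 0.00135 from edgeR's test). Msx2 fell by 0.86 and Dlx5 by 0.53 on the log2 scale, and Dlx6 was the fourth. Twist1, a mesenchymal factor that restrains Runx2, rose by 0.69 (adjusted p = 0.0448 from edgeR's test), and Msx1 rose as well. Atf4, the most abundant of the list, had a log2 fold change of -0.08 and did not pass the test.

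General matrix genes of bone and connective tissue rose. Of 8 listed, 7 were higher by edgeR's test in the average over genotypes and 0 were lower, with a median log2 fold change of 1.62. Col1a1 and Col1a2, the chains of type I collagen, rose by 2.02 and 2.15 on the log2 scale, Sparc by 1.76 and Bgn by 1.48, with adjusted p-values from 0.000373 to 0.000752. These genes are made by fibroblasts as well as osteoblasts. Col1a1 went from 356 ± 146 CPM (SD, n = 3) to 984 ± 291 CPM (SD, n = 3) in WT, and from 219 ± 99.1 CPM (SD, n = 3) to 1313 ± 441 CPM (SD, n = 3) in CybbKO libraries.

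Of 7 genes that handle phosphate and pyrophosphate, 0 were higher and 1 was lower by edgeR's test. This was Ank, which carries pyrophosphate out of cells and was the most abundant of the list, with an averaged log2 fold change of -0.49 (adjusted p = 0.0114 from edgeR's test). The pyrophosphate-producing Enpp1 and the bone phosphatase Phospho1 were not called. Of 4 osteocyte genes, Sost and Dkk1 did not pass the filter, Fgf23 was not called, and Pdpn, which lymphatic endothelium and stroma also make, rose by 1.03 on the log2 scale (adjusted p = 0.00130 from edgeR's test).

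RNA of most genes on the osteoclast list was higher with the ligature, and which cells it came from was not tested. Of 10 osteoclast genes, 9 were tested and 8 were higher by edgeR's test in the average over genotypes, with a median log2 fold change of 2.45. Ctsk, the collagen-degrading protease of osteoclasts, went from 34.9 ± 3.34 CPM (SD, n = 3) to 152 ± 95.5 CPM (SD, n = 3) in WT and from 25.7 ± 3.55 CPM (SD, n = 3) to 176 ± 96.6 CPM (SD, n = 3) in CybbKO libraries. Of 7 cartilage genes 4 were tested and 2 (Hapln1 and Acan) were higher, and of 8 periodontal ligament and tendon genes 4 were higher. Of 8 fibroblast, 7 endothelial, 9 neutrophil and 8 macrophage genes, 6, 7, 9 and 8 were higher. Of 8 oral epithelium genes 1 was lower (Krt76) and of 8 skeletal muscle genes 2 were higher, while 0 of the 5 tooth, 4 salivary gland and 6 nerve and Schwann cell genes tested were called by edgeR, with 2 tooth genes and none of the others at an unadjusted p under 0.05.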

How the data were processed

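RNA-seq was measured in 12 gingival libraries in 4 groups of 3, and the labels gave each library its group. The deposited values are raw read counts per gene, which the authors had not normalized. The methods and the submitters' processing notes give GRCm38. The methods name STAR and featureCounts, and the notes name HTSeq 0.10.0 and FastQC 0.10.1, so the counting tool and its treatment of shared reads are not settled here. Library preparation was stranded.

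Ensembl identifiers were matched to symbols and exons with GENCODE mouse release 21, and 26 of 21965 genes were not matched. Counts were fitted jointly in R 4.3.3 with edgeR 4.0.16 (TMM normalization, filterByExpr, quasi-likelihood F test, 1 mean per group), which tested 15046 genes, and p-values were adjusted by Benjamini-Hochberg over all of them. CPM values use TMM-scaled library sizes, TPM values the union of exons, and exact permutation tests of single genes log2(CPM + 1). The exact tests of the fibroblast markers, and of genes relative to them, used log2 CPM with no added count. Log2 CPM for deviations used a prior count of 2. DESeq2 1.42.0 was an alternative. Python 3.11.15 was used for tables and figures. The fits were tested on simulated data. P-values measure the spread between libraries of a group, and limits from a count of 0 cover counting error only.

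The 9 genes and the other gene lists were chosen with earlier results of these data known. Named are all 9 genes, the osteocalcin copies and Cybb. From each pathway list, named are the called genes (or the 4 most abundant of them where more than 4 were called) and the most abundant gene. For cell type lists, sums are given and up to 3 abundant genes. Likeness is ranked by Pearson's r of deviations, for the gene of highest TPM and for the mean of the genes tested. Msx1, Dlx6, Spp1, Sost, Enpp1, Phospho1, Fgf23, Dkk1 and the called members of short lists are named in addition, after their values were seen. Alternatives were DESeq2, its size factors in edgeR, library size only, no filter, a minimum of 10 counts in each library, robust estimation, a fit restricted to the 6 libraries of a contrast, replicate number as a block, each library left out, a pseudocount of 0.1 and the longest transcript. Scaling to fibroblast markers was added after seeing the data.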

Additional observations from a re-analysis of the deposited data

How the results depend on the processing

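Averaged over genotypes, the ligature gave 4 called genes with DESeq2 and with edgeR under its size factors, library size only, no filter, a robust fit and the block. A minimum of 10 counts in each library gave 3, because Dmp1 was then not tested, and relative to fibroblast markers none of the 4 passed the exact test. With each library left out, the count ran from 4 to 5. In WT, DESeq2 called 1 gene (Dmp1) in place of 0 (the cause was not tested), and the count stayed at 0 with each library left out. In CybbKO the count of 3 ran from 0 to 4 with libraries left out; DESeq2 called 4 genes (Dmp1 in addition), and edgeR 2 with DESeq2 size factors or with only the 6 libraries of the contrast. For both genotype comparisons and for the difference between genotypes, the count was 0 under all alternatives run.

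The replicate number as a block left 1 gene called in CybbKO (Alpl) and 4 in the average. Of 18 pairs of libraries with the same number in different groups, 2 had deviations correlated above 0.1 (range -0.23 to 0.28), and 2 of 12 libraries correlated best with their own number, so the numbers do not pair the libraries.

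Scaling by library size alone shifted the median of all genes by 0.11 on the log2 scale for the ligature in WT, and turned the genotype difference of Phex in ligated tissue from 0.04 to -0.013. Relative to the fibroblast markers, a scale added after seeing the data, Runx2 turned to -0.56 in WT, -0.80 in CybbKO and -0.68 in the average, Bglap to -0.25, -0.22 and -0.23, and Alpl to -0.085 in WT, because the marker level that divides them is higher in ligated tissue.

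Several log2 fold changes turned sign when a library was left out, which leaves a group of 2 whose spread is assumed to be that of the other groups. For the ligature in WT they ran from -0.19 to 0.66 for Runx2, from -0.19 to 1.15 for Bglap, from -0.82 to 0.25 for Phex and from -0.44 to 0.038 for Smpd3. In CybbKO they ran from -0.60 to 0.15 for Phex and from -0.28 to 0.19 for Smpd3, and in the average from -0.50 to 0.029 for Phex. For the genotype in naive tissue they ran from -0.34 to 0.47 for Phex and from -0.27 to 0.28 for Smpd3. For the genotype in ligated tissue they ran from -0.22 to 0.60 for Runx2, from -0.40 to 0.27 for Bglap, from -0.85 to 0.79 for Ibsp, from -1.08 to 0.38 for Dmp1, from -0.37 to 0.54 for Phex and from -0.070 to 0.38 for Smpd3. The difference between genotypes for Dmp1 ran from -0.48 to 0.98. A pseudocount of 0.1 changed no sign and no side of the threshold in the exact tests. Read depth limits what can be said of Mepe, Phex and Dmp1.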
